A study of Macaca mulatta with 4 samples.

Results

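RF/6A cells derive from chorioretinal tissue of the eye of a rhesus macaque (Macaca mulatta) and have served as a model of endothelium, the cell layer lining blood vessels. The genes described here encode 9 receptors of families known for binding native or modified lipoprotein particles. VLDLR, LRP1 and LRP8 are of the low density lipoprotein (LDL) receptor family. SCARB1, SCARB2, CD36, SCARF1, MSR1 and OLR1 are scavenger receptors. They were listed by name, and all 9 had a row among the 14654 rows with a gene symbol in a table of 21314 rows. Total RNA from 4 libraries, titled as static and numbered 1 to 4, was sequenced on a BGISEQ-500 instrument. All came from RF/6A cells bought from a cell repository and grown untreated in Dulbecco's modified Eagle medium with heat inactivated fetal bovine serum, penicillin and streptomycin. No other cell type and no treated cells were analysed here. Nothing in the labels says whether the libraries came from separate cultures, so each SD measures the spread between these samples, which may be technical. Uptake of acetylated LDL is an assay that the series names. The levels given here show which of the 9 receptors the cells transcribe, not which of them take up such particles.

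Receptors of the LDL receptor family carry cysteine-rich ligand-binding repeats outside the cell and a short tail that recruits clathrin adaptors, so that bound particles are internalised, released in acidic endosomes and degraded in lysosomes while the receptor recycles. Scavenger receptors are a structurally mixed group defined by binding of modified LDL, such as acetylated or oxidised LDL. In endothelium, acetylated LDL uptake has been attributed to SCARF1 and the stabilins, whereas macrophages take up modified LDL through MSR1 and CD36.

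The libraries held between 20366946 and 20550610 estimated counts. Levels are given as CPM, the counts of a gene scaled to a common library size, after TMM (trimmed mean of M-values) scaling, a factor that aligns the bulk of genes between libraries, and expressed here means a level of 1 CPM or more in all 4 libraries. CPM is not divided by transcript length, and no lengths were used here, so levels of different receptors are not ranked against each other. Library 2 stood apart from the other libraries: it was the outlying library by Dixon's gap test for 32.2% of the 10199 named genes whose mean level was 1 CPM or more. Ribosomal protein genes took 16.2% of its counts against 6.48% to 7.12% elsewhere. The receptors are therefore given library by library, and means of the 6 expressed receptors also without library 2, with the scaling of all 4 libraries kept. Other genes are mostly given as 4-library means, with library 2 shown apart where leaving it out moved a printed mean by over 1.5 times. Only a high library 2 can move a mean that far. A mean printed alone can therefore still hide a low library 2. There was 1 group of samples and no contrast, so no p-value is given. An exact sign-flip permutation test over 4 libraries could not have passed a threshold of 0.05.

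Of the 9 receptor genes, 6 were expressed and 3 were below 1 CPM in every library. The expressed genes were VLDLR, LRP1, LRP8, SCARB2, SCARB1 and SCARF1, and the genes below the threshold were CD36, MSR1 and OLR1. Over all named rows 64.2% were expressed and 27.8% were below 1 CPM in every library, so these shares lie near the background of the table. The median of the 9 mean levels was 14.5 CPM, beside 10.5 CPM over all named rows.

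**Figure D1:**
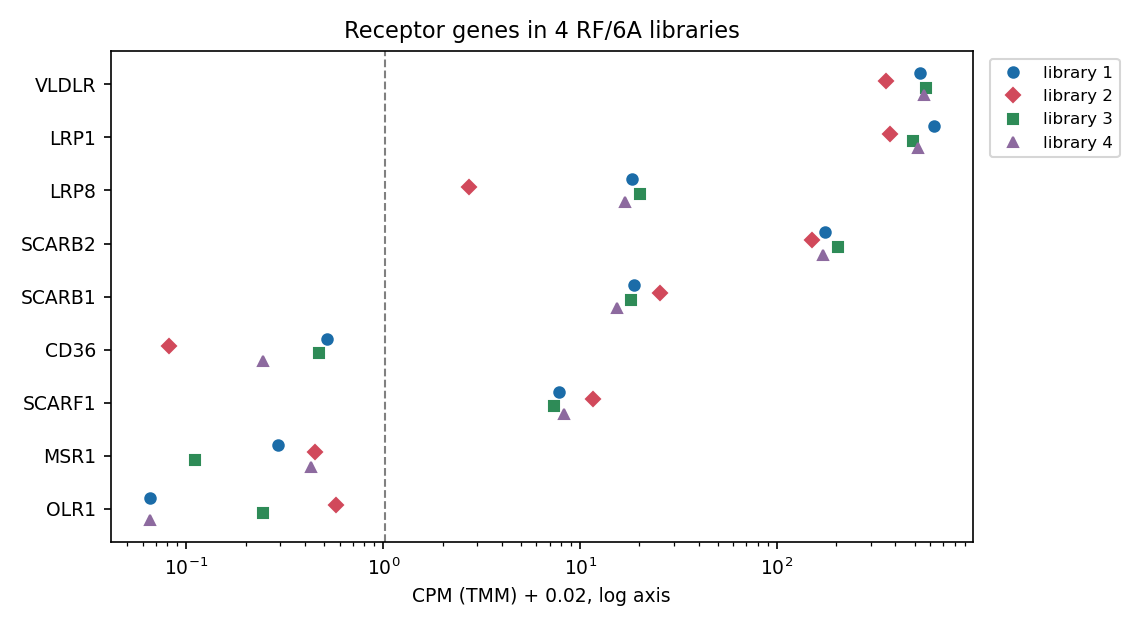
Points give each receptor gene's level in every RF/6A library as CPM + 0.02, drawn on a log axis with a dashed line at 1 CPM. VLDLR, LRP1, LRP8, SCARB2, SCARB1 and SCARF1 lie right of the line in every library, and CD36, MSR1 and OLR1 lie left of it in every library, while the LRP8 point of library 2 (2.71 CPM) lies far below its other 3 points.

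VLDLR (ENSMMUG00000015093) encodes the very low density lipoprotein receptor, which binds triglyceride-rich particles carrying apolipoprotein E and also serves as a receptor for reelin. It had 11726, 5823, 12719 and 12336 counts in libraries 1 to 4, or 533, 359, 571 and 558 CPM. Libraries 1, 3 and 4 lay close together and library 2 lay below them. The mean was 505 ± 98.8 CPM (SD, n = 4), and 554 ± 19.2 CPM without library 2 (n = 3). Its coefficient of variation was 19.5% over 4 libraries and 3.47% without library 2, beside 0.969% that counting error alone gives at the mean count. In the 12167 genes kept by edgeR's filterByExpr, the common biological coefficient of variation was 44.9% over 4 libraries and 13.1% without library 2.

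LRP1 (ENSMMUG00000021782) encodes a large endocytic receptor that clears apolipoprotein E remnants, protease and inhibitor complexes and matrix proteins, and is abundant in fibroblasts and smooth muscle. It measured 625, 377, 490 and 522 CPM in libraries 1 to 4, from 13746, 6107, 10897 and 11532 counts. Library 2 was again the lowest, and library 1 was the highest. The mean was 503 ± 102 CPM (SD, n = 4), and 545 ± 71.0 CPM without library 2. Its coefficient of variation was 20.3% over 4 libraries and still 13.0% among libraries 1, 3 and 4, beside a counting error of 0.973%. The ratio of LRP1 to VLDLR counts within a library, which is free of scaling, was 1.17, 1.05, 0.857 and 0.935 in libraries 1 to 4. Library 2 lay inside the range of the others, so the 2 receptors were lower there by similar factors.

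LRP8 (ENSMMUG00000007612), also called apolipoprotein E receptor 2, is the other reelin receptor of the family and is best known from neurons and platelets. It had 402, 44, 450 and 374 counts, or 18.3, 2.71, 20.2 and 16.9 CPM, in libraries 1 to 4. In these bulk samples, fewer cells with a transcript and less of it per cell cannot be told apart. LRP8 was expressed in all 4 libraries, but library 2 was 6.81-fold below the mean of the others with TMM, 6.74-fold with DESeq2 size factors and 9.27-fold with library totals alone. The mean was 14.5 ± 8.0 CPM (SD, n = 4), and 18.5 ± 1.66 CPM without library 2. There were 132 VLDLR counts per LRP8 count in library 2 and 28.3 to 33.0 in the other libraries, so the gap between these close relatives was 4.39 times wider in library 2. The coefficient of variation fell from 55.0% to 8.98% without library 2, beside 5.61% from counting error.

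SCARB2 (ENSMMUG00000020913), or LIMP-2, is a class B scavenger receptor by sequence that sits in the lysosomal membrane. It measured 175, 151, 203 and 171 CPM in libraries 1 to 4, with a mean of 175 ± 21.6 CPM (SD, n = 4), and 183 ± 17.8 CPM without library 2. Library 2 was lowest, but its ratio to the mean of the others, 0.825, was closer to 1 than that of VLDLR (0.648), LRP1 (0.691) or LRP8 (0.147). The lysosomal membrane gene LAMP1 measured 306 ± 32.5 CPM.

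SCARB1 (ENSMMUG00000016486), or SR-BI, is the high density lipoprotein receptor, which takes up cholesteryl esters without internalising the particle and also binds modified LDL. It measured 18.8, 25.3, 18.2 and 15.4 CPM in libraries 1 to 4, from 414, 410, 405 and 341 counts. Library 2 was the highest with TMM, whereas with library totals alone its 20.1 CPM lay inside the 16.6 to 20.3 CPM of the others. The mean was 19.4 ± 4.18 CPM (SD, n = 4), and 17.5 ± 1.81 CPM without library 2.

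SCARF1 (ENSMMUG00000002376), a class F receptor first described in endothelial cells as SREC-I, binds acetylated LDL. It had 171, 188, 163 and 182 counts in libraries 1 to 4, or 7.78, 11.6, 7.32 and 8.23 CPM. Its mean was 8.73 ± 1.95 CPM (SD, n = 4), and 7.78 ± 0.454 CPM without library 2. Library 2 was highest with TMM. With library totals alone it had 9.20 CPM against 7.95 to 8.86 CPM, a difference that counting error could give. Without library 2 the coefficient of variation was 5.84%, below the 7.54% that counting error gives at the 4-library mean count. The ratio of SCARB1 to SCARF1 counts was 2.42, 2.18, 2.48 and 1.87, again with library 2 inside the range of the others.

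CD36, MSR1 and OLR1, the receptors for modified LDL best known from macrophages and activated endothelium, were near the limit of detection. CD36 (ENSMMUG00000042946), the class B fatty acid and oxidised LDL receptor of macrophages, adipocytes, platelets and microvascular endothelium, had 11, 1, 10 and 5 counts in libraries 1 to 4. MSR1 (ENSMMUG00000002296), the class A receptor of macrophages, had 6, 7, 2 and 9 counts. OLR1 (ENSMMUG00000002191), the lectin-like oxidised LDL receptor LOX-1 that endothelium induces under inflammation, had 1, 9, 5 and 1 counts. A count of 0 in a library still allows up to 3 counts, or 0.135 to 0.185 CPM, and each gene had a library below that limit.

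Summed over the 4 libraries, CD36 gave 0.327 CPM with an exact 95% Poisson interval of 0.216 to 0.476. The interval was 0.186 to 0.433 CPM for MSR1 and 0.111 to 0.315 CPM for OLR1. These intervals cover counting error only, and all 3 upper limits lay under 1 CPM. With so few counts, no fold between libraries is given for these genes. The coefficient of variation over 4 libraries was 110% for OLR1, 65.8% for CD36 and 52.2% for MSR1. Counting error alone gives 50.0%, 38.5% and 40.8% at their mean counts. OLR1 thus spread more than counting error gives, with its highest value, 0.555 CPM, in library 2.

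Library 2 was the lowest library for 4 of the 6 expressed receptors and the highest for 2, with TMM. Over those 10199 named genes, library 2 was lowest in 51.3% and highest in 40.7%, so most genes were at one end or the other. Over these genes, library 2 divided by the mean of libraries 1, 3 and 4 had a median log2 value of -0.20 with TMM, -0.19 with DESeq2 size factors and -0.65 with library totals alone. Relative to the TMM median, LRP8 differed by -2.57 on the log2 scale, VLDLR by -0.42, LRP1 by -0.33 and SCARB2 by -0.08, while SCARB1 lay 0.73 and SCARF1 0.78 above it.

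LRP8 had the largest departure of the 6: 7.63% of the 10199 genes were as low or lower in library 2 by this ratio. For VLDLR the share was 39.3% and for LRP1 41.5%. SCARB1 and SCARF1 were matched or exceeded by 29.6% and 28.5% of genes. The higher ribosomal protein share of library 2 moves with these differences, and its part in them was not tested.

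**Figure D2:**
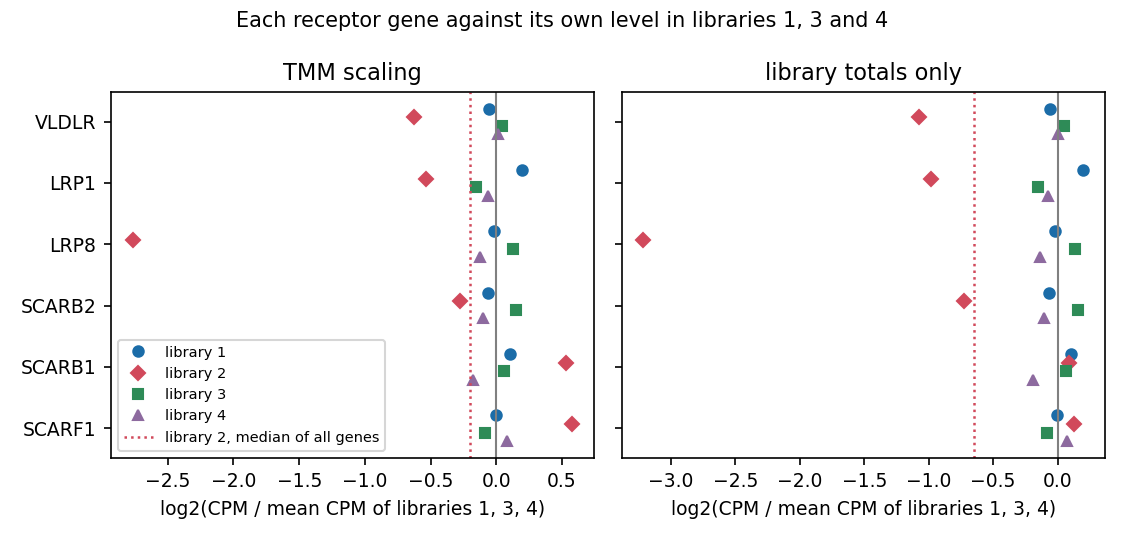
Points show the log2 ratio of each expressed receptor's CPM in a library to its own mean in libraries 1, 3 and 4, with TMM scaling (left) and with library totals alone (right), and the dotted line marks the median of all 10199 named genes for library 2. LRP8 lies far left of that line in library 2 under both scalings, VLDLR, LRP1 and SCARB2 lie left of or near it, and SCARB1 and SCARF1 lie right of it.

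The pattern over the 4 libraries was compared with that of 72 expressed genes of the other lists, as the root mean square distance of log2(CPM + 0.5) centred on each gene's own mean. The nearest gene to LRP8 was LRP12 (distance 0.029 log2 units), to SCARF1 its class F relative SCARF2 (0.032), and to VLDLR the urokinase gene PLAU (0.049). LRP1 was nearest to LRP5 (0.10), SCARB2 to LAMP1 (0.10) and SCARB1 to the chaperone gene MESD (0.12). With 4 libraries these distances mostly record the position of library 2.

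Among 12 other genes of the LDL receptor family and its relatives, 7 were expressed and 4 were below 1 CPM in every library. The expressed share was 58.3%, near the 64.2% over all named rows. The Wnt co-receptors LRP5 and LRP6 measured 99.7 ± 19.0 and 78.9 ± 30.2 CPM (SD, n = 4), and LRP10 measured 48.0 ± 2.02 CPM. In library 2, LRP6 had 35.7 CPM against 86.4 to 106 CPM in the others.

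LRP11, LRP12 and LDLRAD3 measured 20.3 ± 11.3, 20.6 ± 11.1 and 22.1 ± 5.67 CPM. In library 2, LRP11 had 3.39 CPM against 25.5 to 26.4 CPM in the others, and LRP12 had 4.07 CPM against 24.4 to 27.7 CPM, drops of the same kind as that of LRP8. LDLRAD4 went the other way, with 4.07 CPM in library 2 against 1.05 to 1.49 CPM. LRP4, an agrin receptor, had 0.432 CPM in library 2 and 3.14 to 3.87 CPM in the others, which kept it out of the expressed set. LRP1B, LRP2 (megalin), LRP3 and SORL1 were below 1 CPM in every library, LRP2 with 3 counts in all.

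Among 15 matched scavenger receptors of other classes, 7 were expressed (46.7%, against 64.2% of all named rows). SCARA3, a class A relative linked to oxidative stress, measured 138 ± 18.2 CPM (SD, n = 4). SCARF2 measured 40.9 ± 9.26 CPM and COLEC12, a collectin that binds oxidised LDL, 9.79 ± 3.18 CPM. CXCL16, which is both a chemokine and a receptor for oxidised LDL, measured 18.6 ± 8.24 CPM, and AGER, the receptor for advanced glycation end products, 12.2 ± 7.91 CPM. Library 2 was highest for both, at 30.9 and 24.1 CPM. CD68 and CD163L1 measured 6.77 ± 1.62 and 1.42 ± 0.332 CPM.

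The stabilins, scavenger receptors of sinusoidal endothelium, were low. STAB1 stayed below 1 CPM in every library, and STAB2 reached 1.85 CPM in library 2 with 0 to 0.0899 CPM in the others. MARCO had no count in any library. MEGF10, an engulfment receptor, had 0.0617 CPM in library 2 and 2.97 to 3.91 CPM in the others.

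**Figure D3:**
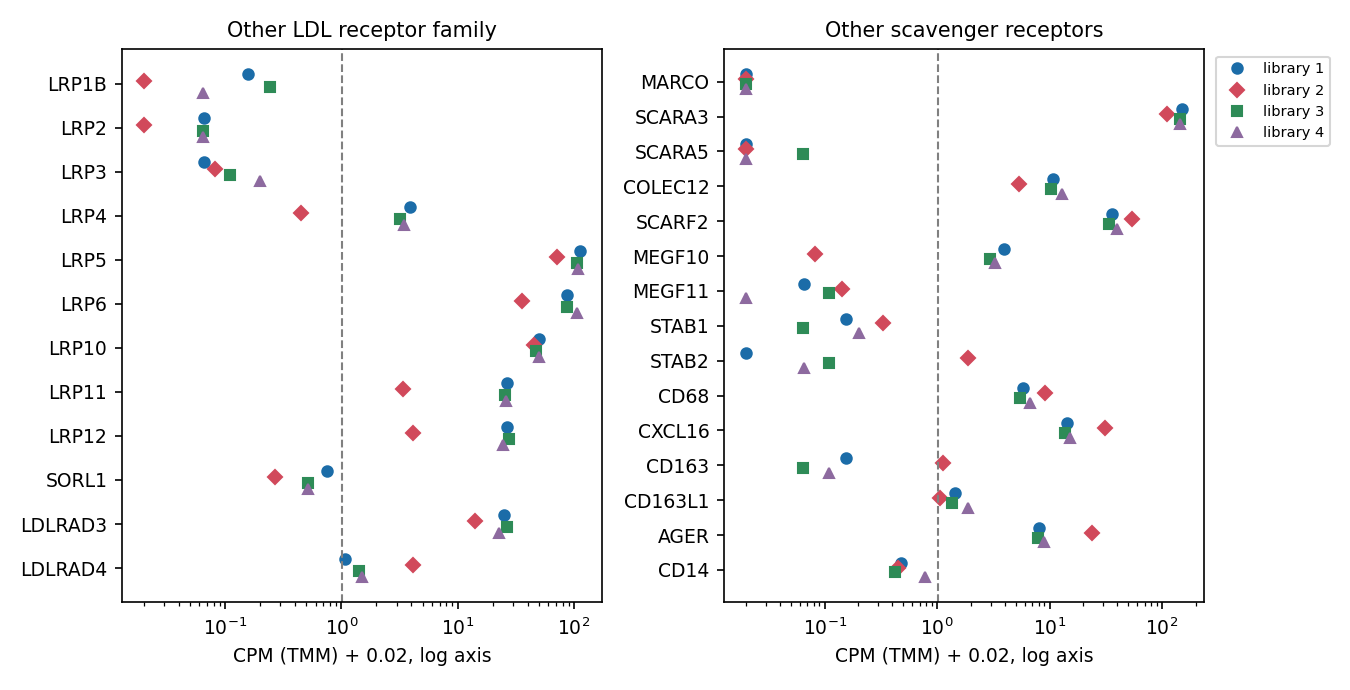
Points show the level of each other LDL-family gene (left) and each other matched scavenger receptor (right) in the 4 libraries, in CPM + 0.02 on a log axis with a dashed line at 1 CPM. LRP5, LRP6 and LRP10 and the scavenger receptors SCARA3 and SCARF2 lie well right of the line, and LRP11, LRP12, LRP4 and MEGF10 show a library 2 point far left of the other 3.

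Receptor folding, sorting and turnover genes were expressed in 8 of 10 matched cases (80%, beside 64.2% of all named rows). LRPAP1, the receptor-associated protein that keeps newly made LDL-family receptors from binding ligand too early, measured 135 ± 99.7 CPM (SD, n = 4). Library 2 had 285 CPM and the others 81.1 to 92.7 CPM. MESD, a chaperone of LRP5 and LRP6, measured 131 ± 32.9 CPM, also with library 2 highest, and the endoplasmic reticulum chaperone HSP90B1 measured 915 ± 142 CPM. DAB2, a clathrin adaptor that binds receptor tails, measured 128 ± 51.6 CPM, with 52.7 CPM in library 2. DAB1, the adaptor through which VLDLR and LRP8 signal when reelin binds, measured 28.4 ± 11.2 CPM. Its level was 13.0 CPM in library 2 and 29.3 to 39.5 CPM in the others. NUMB, an endocytic adaptor, had 8.45 CPM in library 2 against 120 to 141 CPM in the others. GULP1, an engulfment adaptor that binds LRP1, had 0.555 CPM in library 2 and 7.15 to 12.4 CPM in the others, and PDZK1, the scaffold of SCARB1 in liver, measured 1.03 ± 0.451 CPM.

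Ligand and lipoprotein genes were expressed in 10 of 15 matched cases (66.7%, near the 64.2% of all named rows). The LRP1 ligands CALR (calreticulin) and SERPINE2 (a serine protease inhibitor) measured 1196 ± 440 and 351 ± 29.6 CPM (SD, n = 4). CLU, or clusterin, which VLDLR, LRP8 and LRP2 bind, measured 807 ± 363 CPM. THBS1, the CD36 and LRP1 ligand thrombospondin-1, measured 434 ± 257 CPM, with 51.1 CPM in library 2 and 522 to 588 CPM in the others. PLAU measured 102 ± 16.7 CPM. APOE, the main apolipoprotein ligand of VLDLR, LRP1 and LRP8, was at 0.910 to 1.44 CPM in libraries 1, 3 and 4 and at 6.60 CPM in library 2. RELN had 12 counts, all in library 3, and APOB and the lipase gene LPL stayed below 1 CPM in every library.

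All 14 matched genes of clathrin- and caveolin-dependent uptake were expressed, beside 64.2% of all named rows. The clathrin heavy chain gene CLTC measured 655 ± 338 CPM (SD, n = 4) and the light chain genes CLTA and CLTB 281 ± 206 and 73.5 ± 49.6 CPM. In library 2 the heavy chain was low, at 173 CPM against 680 to 937 CPM, and CLTA was high, at 589 CPM against 163 to 205 CPM. CLTB was high there too, at 148 CPM against 44.1 to 52.9 CPM. The 5 subunit genes of the AP2 adaptor did not move together: in library 2 AP2B1 had 24.1 CPM against 109 to 165 CPM in the others, AP2M1 567 CPM against 301 to 326 CPM and AP2S1 251 CPM against 71.3 to 85.3 CPM. AP2A1 had 79.3 CPM against 75.5 to 87.6 CPM, inside the range of the others, and AP2A2 had 112 CPM against 124 to 132 CPM. PICALM measured 308 ± 139 CPM and the endosomal tether EEA1 56.9 ± 29.8 CPM. CAV1 had 23.4 CPM in library 2 and 146 to 163 CPM in the others.

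Lysosomal and cholesterol handling genes were expressed in 12 of 14 matched cases (85.7%, beside 64.2% of all named rows). SREBF2 and SREBF1, which encode sterol-regulated transcription factors of lipid metabolism, measured 536 ± 136 and 350 ± 13.9 CPM (SD, n = 4). NPC2, the carrier that takes cholesterol out of lysosomes, measured 160 ± 82.1 CPM, with 283 CPM in library 2 and 115 to 123 CPM in the others. ABCA1, the cholesterol efflux pump, measured 1.41 ± 0.899 CPM and fell below the threshold only in library 2, at 0.123 CPM. NR1H3, the liver X receptor alpha, was below 1 CPM in every library, whereas its relative NR1H2 measured 91.4 ± 50.6 CPM.

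Markers of the cell types in which these receptors were described gave the setting for the counts above. Of 11 matched endothelial markers 1 was expressed, PECAM1 at 2.49 ± 0.636 CPM (SD, n = 4). CDH5 measured 0.601 ± 0.305, VWF 0.432 ± 0.282, NOS3 0.407 ± 0.196 and TEK 0.226 ± 0.177 CPM. Of these, CDH5 alone reached 1 CPM, in library 2 only, at 1.05 CPM. KDR (1.62 ± 0.896 CPM) and ESAM (1.56 ± 0.771 CPM) each reached 1 CPM in 3 libraries, KDR in all but library 2 and ESAM in all but library 4, and ERG (0.971 ± 0.392 CPM) reached it in 2. ROBO4 had no count, and the 11 genes summed to 7.06 to 10.1 CPM in a library. Of 12 matched macrophage markers 2 were expressed, CD68 and LYZ, and the list, which shares CD68, CD14, CD163 and MARCO with the scavenger receptor list, summed to 15.1 to 16.3 CPM in a library. ITGAM, TYROBP, MRC1 and MARCO had no count, CSF1R had 2 counts, PTPRC measured 0.171 ± 0.0240 CPM and CD14 0.515 ± 0.170 CPM.

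Of 6 adipocyte markers 3 were expressed, FABP4 at 21.8 ± 13.3 CPM, PPARG at 3.87 ± 1.92 CPM and CIDEC at 2.20 ± 1.74 CPM, all highest in library 2. CIDEC had 4.81 CPM there and 1.27 to 1.40 CPM in the others, a mean of 1.33 CPM without library 2. PLIN1 ranged from 0.724 to 4.78 CPM, and ADIPOQ had 4 counts in all. No hepatocyte marker of 5 matched was expressed. All 9 fibroblast markers were expressed, led by COL1A1 at 10781 ± 3810 CPM and COL1A2 at 8424 ± 1044 CPM. The 6 expressed receptors reached 1 CPM in every library. In these libraries 6 of 11 endothelial and 9 of 12 macrophage markers were below 1 CPM throughout, beside 27.8% of all named rows. Another 4 endothelial markers and 1 macrophage marker reached 1 CPM in some libraries only.

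**Figure D4:**
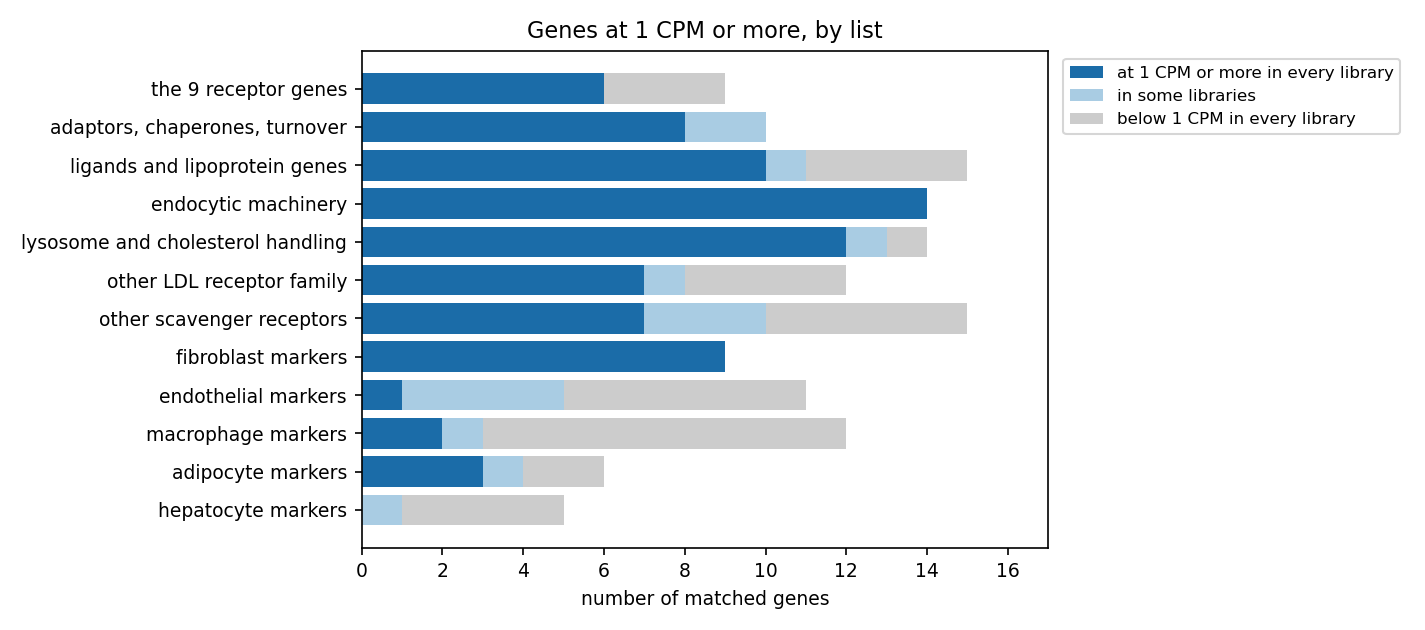
Bars count the matched genes of each list by whether they reached 1 CPM in every library, in some libraries or in none. Endocytic machinery (14 of 14) and fibroblast markers (9 of 9) were expressed in every library, against 1 of 11 endothelial and 2 of 12 macrophage markers. The expressed share of all named rows, not drawn, was 64.2%.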

How the data were processed

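The authors deposited estimated counts per Ensembl rhesus gene, rounded to whole numbers, per the file headers. The submitters' processing notes name Salmon and DESeq2 with neither version nor role. For the genome build, annotation, library kit and strandedness, nothing is given in the sources used here. Salmon shares reads among similar transcripts, so reads of related receptors can be misassigned, an error that intervals do not cover. Rows were paired with symbols through a table of Ensembl identifiers (14654 of 21314), and 126 of 139 listed genes matched. The unmatched may lie under rows with no symbol, which held 13.1% to 21.7% of counts. The 12 lists, the members among them, were chosen with earlier results of these data known.

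Counts were scaled with TMM in edgeR 4.0.16 under R 4.3.3, with DESeq2 1.42.0 size factors and library totals as alternatives. Expressed means 1 CPM or more in every library. Dixon's critical value for 4 samples was 0.829. The comparison of neighbouring receptors per coding length was not run, because no lengths were used here. Code was tested on simulated data.

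All 9 receptors were named. In the other receptor lists, each expressed gene was named. In the adaptor, ligand, endocytic and lysosomal lists, the 4 highest, the 2 lowest and any gene with an outlying library were. Fixed marker names were CDH5, VWF, PECAM1, TEK, NOS3, PTPRC, CSF1R, CD14 and ITGAM, with the 2 highest fibroblast genes. Some genes of these pathways are not reported here. DAB1, AP2A1, AP2A2, AP2B1, LPL, LRP1B, LRP2, LRP3, LRP4, SORL1, MEGF10, STAB1, STAB2 and MARCO were chosen after their values were seen. So were KDR, ESAM, ERG, ALB, the other marker genes and the count ratios.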

Additional observations from a re-analysis of the deposited data

Results flagged for a closer look

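Dixon's test was run on the CPM of 89 matched receptor and pathway genes, and 30 of them had an outlying library (about 1 in 20 would by chance). It was library 2 for 27 genes, 9 of them low and 18 high. These share a library and are not independent. Of the 70 genes with a mean of 1 CPM or more, library 2 was outlying in 23 (32.9%), near the 32.2% over all named genes of that level. None of the 9 receptors was flagged, although LRP8 was 6.81-fold lower in library 2 than the mean of the others.

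Library 2 was low, in CPM, for the receptors LRP2 (0), LRP11 (3.39) and LRP12 (4.07), the adaptor NUMB (8.45), the ligands THBS1 (51.1) and PLAU (76.8), and RAB7A (134), CAV1 (23.4) and LAMP2 (43.8). LRP2 had 1 count in each other library, so its 0 is not a readable difference at this depth. It was high for the receptors LDLRAD4 (4.07), STAB2 (1.85), CXCL16 (30.9), CD163 (1.11) and AGER (24.1), and for the chaperones LRPAP1 (285) and MESD (180). It was also high for the ligands APOE (6.60), APOB (0.308), CLU (1347) and CALR (1853), for CLTA (589), CLTB (148), AP2M1 (567), AP2S1 (251) and RAB11A (280), and for NPC2 (283) and NR1H2 (167).

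Library 3 was high for SCARA5 (0.0449), a single count, and for RELN (0.539). Library 4 was high for CD14 (0.769).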

How the results depend on the processing

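The count of 6 expressed receptors was unchanged with library totals, DESeq2 size factors, thresholds of 0.5 and 2 CPM, filterByExpr and each library left out. The count below the threshold in every library was 1 at 0.5 CPM (MSR1) and 0 with filterByExpr, which removes the 3 low genes. Of 54 alternative receptor levels, 53 moved by less than 1 SD. The exception was SCARB2, whose leave-one-out range was 161 to 198 CPM, the highest without library 2. Here the remaining libraries were scaled again, and with the 4-library scaling kept that mean was 183 CPM. With that scaling kept, leaving out 1 of 4 libraries cannot move a mean by 1 SD of the same 4 libraries. The leave-one-out moves below 1 SD therefore do not show that a level is stable. With library totals and with DESeq2 size factors, which keep all 4 libraries, every receptor level moved by less than 1 SD. Expressed endothelial markers numbered 2 at 0.5 CPM and 1 to 2 with a library left out, gaining KDR without library 2 and ESAM without library 4. Expressed hepatocyte markers numbered 1 at 0.5 CPM (ALB). Per-length comparisons of receptors were not run. No paired analysis was possible because there is only 1 group. Depth limits CD36, MSR1 and OLR1.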
